A study of Mus musculus with 12 samples.

Results

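Voltage-gated sodium channels were followed through 7 subunit genes, taken by their symbols. These were the alpha subunit genes Scn1a, Scn2a, Scn3a and Scn8a and the beta subunit genes Scn2b, Scn3b and Scn4b. All 7 were found among the 19268 genes of the table by Ensembl mouse gene identifier. The libraries came from the forebrain, without the olfactory bulb, of male C57BL/6J mice. Knock-out (KO) mice were homozygous for a Shank3 allele that lacks exons 14–16, and wild-type (WT) mice served as controls. Both genotypes were sampled as juveniles at postnatal day 25 (P25) and as adults at postnatal day 60 (P60), with 3 libraries for each genotype at each age. The groups are called P25-WT, P25-KO, P60-WT and P60-KO, and these libraries cover 1 mutant line and 1 sex. The labels number the replicates but do not name litters, so p-values measure the spread between these libraries.

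A voltage-gated sodium channel carries the inward sodium current that starts and propagates the action potential. Its large alpha subunit forms the pore, senses voltage and inactivates, and smaller beta subunits with an immunoglobulin-like domain attach to it and alter its gating and placement. In forebrain neurons, Nav1.1 (Scn1a) is best known from inhibitory interneurons, Nav1.2 (Scn2a) and Nav1.6 (Scn8a) concentrate at the axon initial segment of excitatory neurons, and Nav1.3 (Scn3a) is known as the early developmental form. Nav1.6 is known to take over from Nav1.2 at nodes of Ranvier as axons mature.

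The members lie on 3 chromosomes (GRCm38). Scn3a (ENSMUSG00000057182, chr2:65457118-65567627, minus strand), Scn2a (ENSMUSG00000075318, chr2:65620771-65767447, plus strand) and Scn1a (ENSMUSG00000064329, chr2:66270778-66440840, minus strand) share a stretch of chromosome 2. Scn8a (ENSMUSG00000023033, chr15:100869858-101045938, plus strand) is on chromosome 15, as is Shank3. Scn3b (ENSMUSG00000049281, chr9:40269217-40291618), Scn2b (ENSMUSG00000070304, chr9:45117782-45130070) and Scn4b (ENSMUSG00000046480, chr9:45138395-45154152) are on the plus strand of chromosome 9, and Scn4b starts 8325 bases after the end of Scn2b.

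The alpha subunit genes are close paralogs, so words shared between transcripts were counted. Over whole transcripts, 9.57% of the 31-base words of Scn3a, 9.16% of those of Scn2a and 7.29% of those of Scn1a also occurred in transcripts of another gene. The share was 0.490% for Scn8a, 2.20% for Scn2b, 0.269% for Scn3b and 0 for Scn4b. Reads from such words could be divided between paralogs by the quantification, and their share in the values of the chromosome 2 genes was not tested.

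The promoters of the 3 members below are shown because Scn1a rose and Scn2b fell with age in both genotypes, and Scn4b is the neighbour of Scn2b. The 300-base windows run from 250 bases before to 50 bases after the transcription start in RefSeq (GRCm38.p6), at chr2:66440788-66441087 (minus strand), chr9:45117626-45117925 and chr9:45138374-45138673 (plus strand). The capitals mark CG dinucleotides, the bases at which vertebrate DNA is methylated.
Scn1a: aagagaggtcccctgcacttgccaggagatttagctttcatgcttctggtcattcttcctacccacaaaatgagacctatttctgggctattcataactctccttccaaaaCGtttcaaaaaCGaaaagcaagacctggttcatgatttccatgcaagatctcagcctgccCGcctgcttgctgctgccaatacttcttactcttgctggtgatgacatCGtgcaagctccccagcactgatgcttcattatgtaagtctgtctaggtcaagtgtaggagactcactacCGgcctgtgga
Scn2b: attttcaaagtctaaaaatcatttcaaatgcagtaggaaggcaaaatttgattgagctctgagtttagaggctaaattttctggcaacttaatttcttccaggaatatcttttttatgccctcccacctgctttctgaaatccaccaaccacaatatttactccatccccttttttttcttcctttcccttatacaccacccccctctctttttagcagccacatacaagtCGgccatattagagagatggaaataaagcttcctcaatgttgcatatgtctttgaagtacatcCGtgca
Scn4b: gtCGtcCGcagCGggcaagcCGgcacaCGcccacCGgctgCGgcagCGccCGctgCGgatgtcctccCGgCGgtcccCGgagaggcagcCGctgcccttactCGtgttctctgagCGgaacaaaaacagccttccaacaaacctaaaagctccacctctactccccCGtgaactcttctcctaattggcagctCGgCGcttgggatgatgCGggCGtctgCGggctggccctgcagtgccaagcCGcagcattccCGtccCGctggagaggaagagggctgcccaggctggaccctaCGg
The Scn1a window held 5 CG dinucleotides, the Scn2b window 2 and the Scn4b window 26, against a median of 7 over 32851 promoter windows. Fewer CG dinucleotides than in the Scn2b window were present in 14.1% of all windows, and fewer than in the Scn4b window in 83.1%. The listed windows of Scn2a held 3 and 9 and those of Scn8a 38 and 12. Both strands were searched for TATAAA, known from promoters bound by the TBP protein, for the Sp1 site GGGCGG, and for TTCAGCACC, a part of the element that the repressor REST binds. Among the 7 windows of 5 members, only the second Scn2a window held TATAAA, which 13.6% of all windows hold. None held GGGCGG, which is in 35.7% of all windows, or TTCAGCACC, which is in 0.371%.

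Values are normalized counts, that is, estimated counts that the authors scaled between libraries, so the sequencing depth behind them is unknown. Libraries of the same group correlated across genes with r from 0.982 to 0.990 (Pearson, genes are not independent replicates). Shank3, the targeted gene, had 5174 ± 481 in P25-KO and 10779 ± 786 in P25-WT (SD, n = 3), and 4914 ± 339 in P60-KO and 9796 ± 749 in P60-WT (SD, n = 3). The defining markers of a forebrain sample were present, with Slc17a7 of glutamatergic neurons between 29802 and 39257, Gad1 of GABA neurons between 8754 and 11623 and Mbp of oligodendrocytes between 81041 and 214530. Acta1 of skeletal muscle lay between 134 and 267.

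Levels of different subunits were compared per kilobase of the longest protein-coding transcript. Scn2b was highest in every group, at a mean of 1916 normalized counts per kilobase over the 12 libraries, followed by Scn4b at 1516, Scn2a at 1209, Scn8a at 1149, Scn3b at 916, Scn1a at 711 and Scn3a at 187. The order of the group means was the same in all 4 groups, and also with the union of all exons as the length. The ranges of Scn2a and Scn8a overlapped in every group. Within libraries, Scn2a lay above Scn8a in all but P25-KO replicate 3. With exon union lengths it also lay below Scn8a in P25-WT replicates 1 and 3, so their order depends on the length used. Scn2b and Scn4b were apart at P25 and overlapped at P60, and all other neighbours were apart within each group. Among 15676 protein-coding genes, Scn2b stood at the 93.9th percentile per kilobase and Scn3a at the 47.4th.

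Scn1a, which encodes the alpha subunit Nav1.1, was listed at 5606, 4894 and 5657 normalized counts in P25-WT replicates 1 to 3 and at 5275, 5210 and 4616 in P25-KO. At P60 it was listed at 6597, 7236 and 7121 in WT and at 5991, 6797 and 6560 in KO. Every P60 library lay above every P25 library, and the genotypes overlapped at each age.

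Scn3a, which encodes Nav1.3, was listed at 1494, 1340 and 1648 in P25-WT and at 1510, 1589 and 1390 in P25-KO. The P60 values were 1952, 1881 and 2338 in WT and 2096, 1813 and 2346 in KO. The ages did not overlap in either genotype, and replicate 3 was the highest at P60 in both genotypes.

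Scn2a, which encodes Nav1.2, was listed at 10459, 9179 and 10552 in P25-WT and at 10738, 10707 and 8859 in P25-KO. At P60 the values were 11190, 12122 and 12102 in WT and 10384, 11580 and 11797 in KO. The ages were apart in WT but overlapped in KO, where P60-KO replicate 1 lay below P25-KO replicates 1 and 2.

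Scn8a, which encodes Nav1.6, was listed at 13234, 10904 and 13114 in P25-WT and at 12899, 12434 and 11442 in P25-KO. Values of 13652, 14548 and 14499 were found in P60-WT and of 12752, 13861 and 14324 in P60-KO. As for Scn2a, the ages were apart in WT and overlapped in KO through P60-KO replicate 1. P25-WT replicate 2 and P25-KO replicate 3 were the lowest libraries of their groups for all 4 alpha subunit genes.

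Scn2b encodes a beta subunit that is linked to the alpha subunit by a disulfide bond. It was listed at 9796, 10294 and 9422 in P25-WT and at 9859, 10144 and 9412 in P25-KO. At P60 it was listed at 7976, 7616 and 8193 in WT and at 7687, 7980 and 8688 in KO. This was the only member whose P60 libraries all lay below its P25 libraries.

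Scn3b, whose product binds the alpha subunit without a covalent bond, was listed at 3531, 3453 and 3561 in P25-WT and at 3592, 3719 and 3372 in P25-KO. Its P60 values were 4387, 3722 and 4191 in WT and 3875, 3982 and 4242 in KO. The ages were apart within each genotype, with 3722 as the lowest P60-WT value above 3561 as the highest in P25-WT.

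Scn4b, a disulfide-linked subunit whose tail is known to produce resurgent current, was listed at 7242, 6830 and 7256 in P25-WT and at 6961, 7250 and 6927 in P25-KO. It was listed at 8069, 8554 and 8036 in P60-WT and at 6898, 8524 and 8079 in P60-KO. P60-KO replicate 1 was the lowest of the 6 KO libraries, so the ages were apart in WT only.

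**Figure D1:**
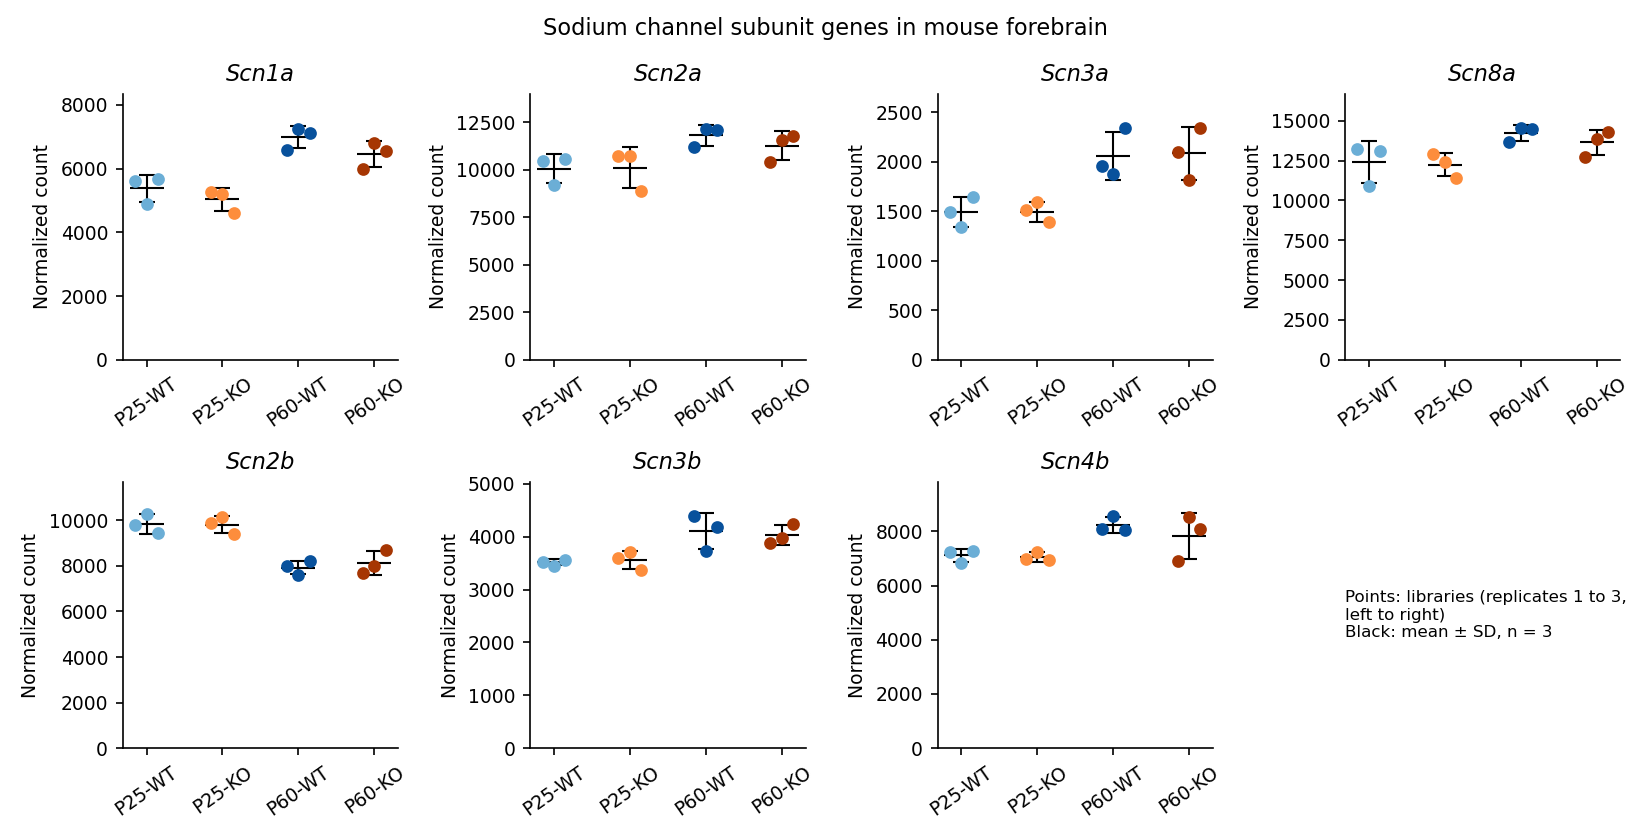
Normalized counts of the 7 sodium channel subunit genes (vertical axes from 0) in the 4 groups, with a point for each library and the mean ± SD (n = 3) in black. Scn2b is lower at P60, at 7616 to 8688 against 9412 to 10294 at P25, and the means of the other members are higher at P60.

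The comparison of KO with WT mice asked whether sodium channel transcripts change when Shank3 is disrupted. No member was differentially expressed at either age, and no member had KO and WT libraries that did not overlap. At P25, limma called 0 of 7 members at an adjusted p under 0.05, against 0.00571% of the genes tested (Shank3 alone), and 0 of 7 had an unadjusted p under 0.05. Groups without overlap were found for 0 of 7 members, against 4.76% of genes. At P60 the counts were again 0 of 7 called, against 0.00568% of genes, 0 of 7 with an unadjusted p under 0.05, and 0 of 7 without overlap, against 7.79% of genes.

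The log2 fold changes of KO against WT, on the log2(value + 1) scale, ran from -0.10 for Scn1a to 0.018 for Scn3b at P25. Scn1a had the largest difference at both ages. At P60 its log2 fold change was -0.12 ± 0.06 (SE), with a 95% interval from -0.25 to 0.019, and the adjusted p was 0.9995 (limma). The P60 values of the other alpha subunits were -0.07 for Scn2a, -0.06 for Scn8a and 0.018 for Scn3a. Those of the beta subunits were -0.07 for Scn4b, -0.021 for Scn3b and 0.033 for Scn2b. The intervals of all 7 members spanned 0 at both ages, and the widest, that of Scn3a at P60, ran from -0.22 to 0.26. The median of the absolute log2 fold changes over all genes was 0.069 at P25 and 0.068 at P60.

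The comparison of P60 with P25 gave the change between juvenile and adult forebrain. Over both genotypes, with genotype as a term and all 12 libraries, 7 of 7 members were called by limma, 6 higher and 1 lower at P60. The same test called 37.6% of all genes, 3219 higher and 3397 lower. With equal totals in all libraries, the same 6 and 1 member calls were made, while the share of higher genes among all called rose from 48.7% to 59.7% and the median of all genes moved to 0.046.

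Among the alpha subunits, Scn3a rose most, by 0.47 ± 0.07 on the log2 scale (SE, adjusted p of 0.000293, limma). Scn1a rose by 0.37 ± 0.05 (adjusted p of 0.000111, limma), from a mean of 5210 to 6717 normalized counts. Scn2a rose by 0.20 ± 0.06 (adjusted p of 0.0150, limma) and Scn8a by 0.18 ± 0.05 (adjusted p of 0.0159, limma). Among the beta subunits, Scn2b fell by 0.29 ± 0.04 (adjusted p of 0.000108, limma), from a mean of 9821 to 8023. Scn3b rose by 0.20 ± 0.05 (adjusted p of 0.00407, limma) and Scn4b by 0.18 ± 0.05 (adjusted p of 0.0101, limma). The median log2 fold change was 0.28 for the 4 alpha subunits and 0.18 for the 3 beta subunits, against 0.0037 for all genes tested.

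The alpha subunit transcripts are long, at 8386 to 11436 bases, against 4150 to 4982 bases for the beta subunits. When the dependence of each library on length and GC content of the transcripts was removed, 5 of 7 members were called, beside 5906 of all genes (45.6% of them higher). Scn1a was then at 0.18 (adjusted p of 0.00214, limma) and Scn3a at 0.25 (adjusted p of 0.00247, limma), while Scn2a at 0.0050 (adjusted p of 0.937, limma) and Scn8a at 0.078 (adjusted p of 0.0864, limma) were no longer called. The beta subunits stayed called, with Scn2b at -0.32 (adjusted p of 7.5e-05, limma), Scn4b at 0.24 (adjusted p of 0.00115, limma) and Scn3b at 0.13 (adjusted p of 0.0224, limma).

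**Figure D2:**
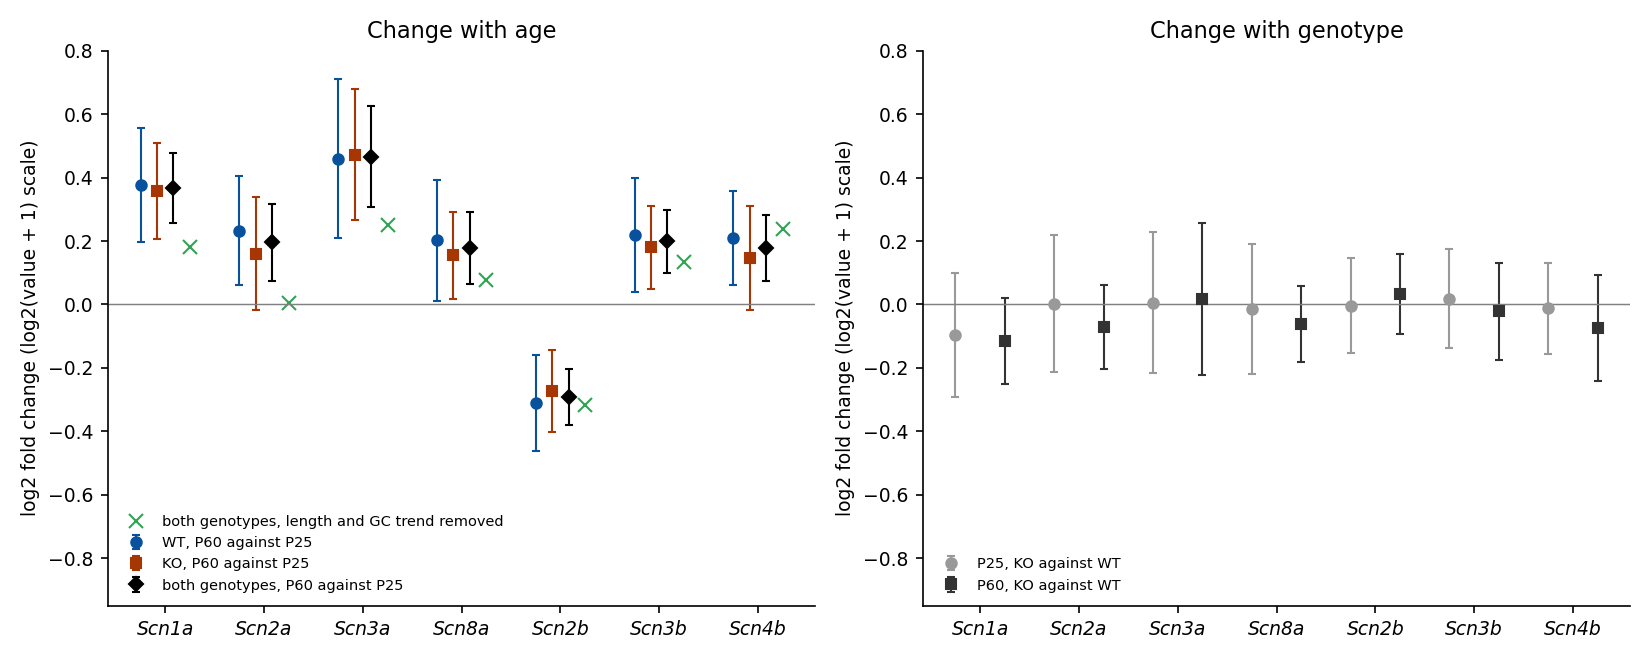
Log2 fold changes (log2(value + 1) scale) of the 7 members with 95% intervals from limma, for P60 against P25 (left) in WT (circles), KO (squares) and both genotypes (diamonds) and for KO against WT (right) at P25 (circles) and P60 (squares). Green crosses give the change over both genotypes after the length and GC trend was removed, which is near 0 for Scn2a (0.0050) and is -0.32 for Scn2b, and all genotype intervals span 0.

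Within genotypes the same 3 members passed. In WT mice, Scn1a rose by 0.38 ± 0.08 (SE, adjusted p of 0.0274, limma), Scn3a rose by 0.46 ± 0.11 (adjusted p of 0.0391, limma) and Scn2b fell by 0.31 ± 0.07 (adjusted p of 0.0278, limma). These 3 of 7 calls stand against 8.65% of all genes, and 7 of 7 members without overlap stand against 36% of all genes. The 4 members that did not pass had log2 fold changes of 0.20 to 0.23 with adjusted p from 0.0759 to 0.155 (limma). Leaving out P25-WT replicate 1 or any 1 of the P60-WT libraries ended all 3 calls (0 of 7), with adjusted p from 0.0741 to 0.166 (limma) and no change of sign. With limma run without an intensity trend, 0 of 7 were called in WT, with adjusted p of 0.0938 to 0.106 for these 3. Among all called genes, 42.3% were higher at P60, and 59.3% with equal totals. Without P25-WT replicate 2, which was low for the alpha subunits, 4 members were called, Scn4b among them. After removal of the length and GC trend, Scn1a (0.18, adjusted p of 0.0824, limma) and Scn3a (0.23, adjusted p of 0.105, limma) were not called in WT, whereas Scn4b was (0.26, adjusted p of 0.0228, limma).

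In KO mice, Scn1a rose by 0.36 ± 0.07 (SE, adjusted p of 0.00647, limma), Scn3a rose by 0.47 ± 0.09 (adjusted p of 0.00755, limma) and Scn2b fell by 0.27 ± 0.06 (adjusted p of 0.0102, limma). The 3 of 7 calls stand against 20.7% of all genes, and 4 of 7 members without overlap (these and Scn3b) against 39.4%. Scn3b was at 0.18 (adjusted p of 0.0562, limma), and Scn2a, Scn8a and Scn4b were at 0.15 to 0.16 (adjusted p from 0.102 to 0.186, limma). Run without an intensity trend, limma called 0 of 7, with adjusted p of 0.0553 to 0.0676 for the 3. Among all called genes in KO, 45.3% were higher at P60, and 56.5% with equal totals. With the length and GC trend removed, Scn1a was at 0.19 in KO mice (adjusted p of 0.0540, limma) and was not called. Scn3a was then at 0.27 (adjusted p of 0.0323, limma) and Scn2b at -0.29 (adjusted p of 0.00493, limma), and both were called.

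The genotype by age interaction asked whether the genotype difference changed between the ages. It was called for 0 of 7 members (limma), against 0% of genes, with 288 of 17594 genes and 0 of 7 members at an unadjusted p under 0.05. The members' interaction values ran from -0.07 for Scn2a to 0.037 for Scn2b on the log2 scale. The widest interval, that of Scn3a, ran from -0.32 to 0.35, and the narrowest, that of Scn2b, from -0.15 to 0.22.

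The make-up of the channel pool was described by the share of each subunit in the sum of its class, per kilobase. Scn2b made up 48.2% ± 1.8 of the beta subunit sum in P25-WT and 48.1% ± 0.2 in P25-KO, and 39.2% ± 0.8 in P60-WT and 40.7% ± 1.4 in P60-KO (SD, n = 3). In the alpha subunit sum, Scn2a had mean shares of 36.6% to 38.2% in the 4 groups and Scn8a of 34.5% to 36.3%. Scn3a had the smallest share, with a mean of 5.19% in P25-WT, 5.30% in P25-KO, 5.95% in P60-WT and 6.35% in P60-KO.

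**Figure D3:**
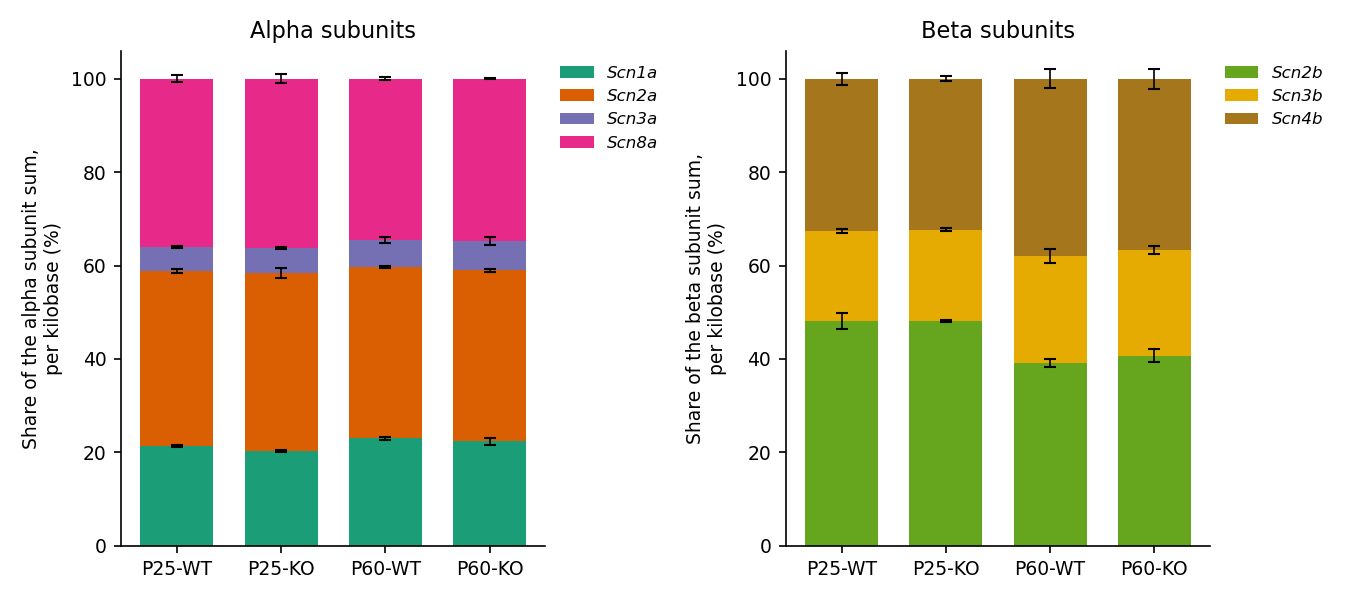
Mean share (%) of each gene in the per-kilobase sum of the alpha subunits (left) and of the beta subunits (right) in the 4 groups, with error bars of 1 SD of that gene's share (n = 3) at the top of its segment. Scn2b has 48.2% in P25-WT and 48.1% in P25-KO, and 39.2% in P60-WT and 40.7% in P60-KO.

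A factor that scales a whole library cancels in a ratio of subunits, and 3 ratios were compared between ages. Steps that act on genes differently, such as removal of the length and GC trend, do not cancel. The Scn2b to Scn3b ratio of normalized counts was 2.80 ± 0.17 in P25-WT and 2.75 ± 0.03 in P25-KO, and 1.94 ± 0.11 in P60-WT and 2.01 ± 0.03 in P60-KO (SD, n = 3). It was lower in 6 of 6 P60 libraries than in any P25 library, by 0.49 on the log2 scale. The two-sided exact permutation p was 0.005, the smallest that 400 arrangements allow, and 0.015 after adjustment over the 3 ratios. With the length and GC trend removed the difference was -0.45.

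The Scn8a to Scn2a ratio, which sets the late against the earlier nodal channel, was 1.23 ± 0.04 in P25-WT, 1.22 ± 0.07 in P25-KO, 1.21 ± 0.01 in P60-WT and 1.21 ± 0.02 in P60-KO (SD, n = 3). It differed between ages by -0.017 on the log2 scale (two-sided exact permutation p of 0.55, adjusted p of 0.55). With the length and GC trend removed the difference was 0.073 and the exact permutation p was 0.005, so its direction and call depend on that step. The Scn1a to Scn3a ratio was 3.61 ± 0.16, 3.36 ± 0.11, 3.42 ± 0.40 and 3.13 ± 0.53 in the same order (SD, n = 3) and differed by -0.10 between ages (two-sided exact permutation p of 0.255, adjusted p of 0.383). Without P60-KO replicate 2, which had the highest ratio of its group, that difference was -0.17 (exact permutation p of 0.04). Between genotypes, exact permutation p-values of the 3 ratios ran from 0.2 to 0.8 at the 2 ages, where 0.1 is the smallest that 3 against 3 libraries allow.

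**Figure D4:**
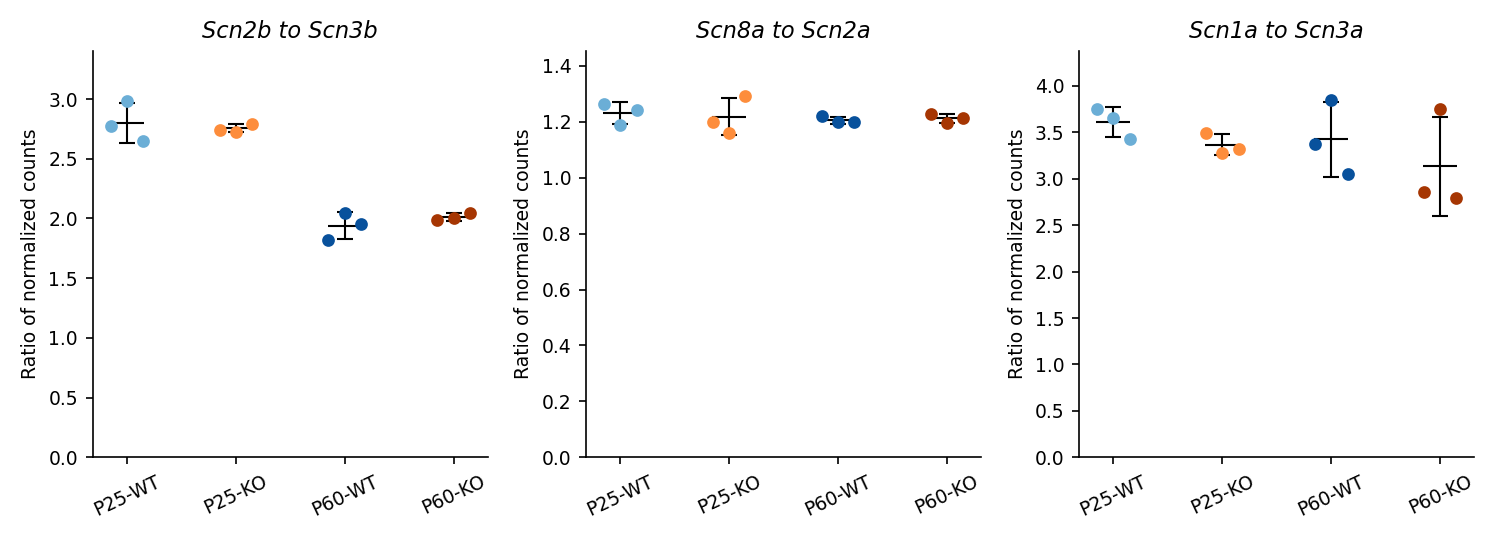
Ratios of normalized counts within each library (vertical axes from 0) for Scn2b to Scn3b, Scn8a to Scn2a and Scn1a to Scn3a in the 4 groups, with the mean ± SD (n = 3) in black. All P60 libraries lie at 1.82 to 2.05 for Scn2b to Scn3b, below the P25 libraries at 2.65 to 2.98, whereas the ages overlap in the other panels.

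The other sodium channel genes were given by a list of 8, of which 6 were tested over both genotypes. Scn9a, which encodes Nav1.7 of sensory neurons, rose with age by 0.71 ± 0.14 (SE, adjusted p of 0.00107, limma) from a low mean of 144 to 235 normalized counts. The other 5 genes of the list did not pass, where the same test called 37.6% of all genes. Scn10a and Scn11a had group means of at most 16.5, and Scn4a was not analysed here.

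Of 15 proteins of the axon initial segment and node of Ranvier, where these channels are anchored, 5 rose and 2 fell with age, where the same test called 37.6% of all genes. The potassium channel genes Kcna2 (0.34 ± 0.06, adjusted p of 0.000732, limma) and Kcnq3 (0.29 ± 0.06, adjusted p of 0.00193, limma) rose. The adhesion molecule genes Nfasc (-0.39 ± 0.06, adjusted p of 0.000369, limma) and Cntn1 (-0.17 ± 0.05, adjusted p of 0.0109, limma) fell. Ank3, the scaffold that anchors sodium channels, was at 0.013 ± 0.065 (adjusted p of 0.895, limma). The median of the list was 0.074, against 0.0037 for all genes.

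Of 13 regulators of sodium channels, 2 rose and 4 fell with age, again beside 37.6% of all genes called. Fgf13 and Fgf14 encode intracellular factors that bind the tail of the alpha subunit, and Fgf13 fell (-0.21 ± 0.04, adjusted p of 0.00161, limma) while Fgf14 rose (0.20 ± 0.05, adjusted p of 0.00600, limma). Nedd4, a ubiquitin ligase, rose (0.23 ± 0.05, adjusted p of 0.00277, limma). Csnk2b, a subunit of casein kinase 2, fell (-0.38 ± 0.06, adjusted p of 0.000222, limma). The median of the list was -0.051. No gene of these 3 lists was called between KO and WT mice at either age.

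Markers of cell types also moved with age, beside 37.6% of all genes called in that test, and in bulk tissue fewer cells of a type and less RNA per cell cannot be told apart. All 8 oligodendrocyte markers fell (median log2 fold change of -1.26), and their summed level was between 409881 and 533442 at P25 and between 200820 and 227983 at P60. All 6 oligodendrocyte precursor markers and 6 of 8 astrocyte markers also fell. Of the glutamatergic neuron markers 6 of 10 fell and 1 rose, with sums of 85825 to 94074 at P25 and 68188 to 72995 at P60. Among GABA neuron markers 5 of 10 fell and 2 rose, and among immature neuron markers 6 of 7 fell and 1 rose.

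Markers were also counted for the cell types for which Scn1a and Scn4b are best known and for others, and these counts too are read beside the 37.6% of all genes called. Of 6 parvalbumin interneuron markers 2 rose and 1 fell, with sums of 14351 to 16974 at P25 and 16718 to 18025 at P60, and Pvalb itself was at -0.016 (adjusted p of 0.905, limma). Of 9 striatal projection neuron markers 1 rose and 2 fell, with sums of 31454 to 35266 at P25 and 30720 to 33482 at P60. Of 5 thalamic markers 1 rose and 2 fell, and of 7 muscle markers 2 fell. Of 8 microglia markers 2 fell, and of 6 endothelial markers 1 rose. No marker list had a gene called between KO and WT mice. The part of the marker shifts in the change of the sodium channel genes with age was not tested.

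The genes whose pattern over the 12 libraries was most like that of each member were found by the root mean square difference of centred log2 values, as a description. They were Rbl2 (0.050) and Kcnb2 (0.055) for Scn1a, Ppp1r9a (0.029) and Nexmif (0.037) for Scn2a, Zfp182 (0.046) and Sp1 (0.054) for Scn3a, and Dnajb14 (0.030) and Usp29 (0.031) for Scn8a. For the beta subunits they were Cd47 (0.041) and Lynx1 (0.041) for Scn2b, Phtf1 (0.041) for Scn3b, and Slc35b4 (0.042) and Zmat4 (0.042) for Scn4b. The median over all genes was between 0.226 and 0.329, depending on the member.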

How the data were processed

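RNA of 12 forebrain libraries was measured by RNA sequencing. The authors estimated transcript abundance with Salmon, corrected for GC bias, and passed it through tximport to DESeq2 for normalization. The submitters' processing notes list Salmon 1.1.0, R 3.6.2 and DESeq2 1.26.0, while the study's methods name other versions of R and DESeq2. The deposited values are a signal on a count scale, they sum to 30.6 to 32.3 M per library, and since 0.199% of them are whole (tolerance 0.001), no count model was fitted. The reference annotation is not given in the sources used here. Names, positions, lengths and GC content came from GENCODE M21 (GRCm38), with 19252 of 19268 identifiers matched. Promoters came from RefSeq (GRCm38.p6).

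Tests used limma 3.58.1 in R 4.3.3 (eBayes with a trend) on log2(value + 1), for genes with a mean of at least 10, with Benjamini-Hochberg adjustment over all genes tested and a call at 0.05. The scale understates changes of low genes. Ratios were compared by exact permutation of ages within genotypes. Named genes were the members, Shank3, up to 5 called genes per channel-related list with the smallest adjusted p, the first gene of marker lists, and 2 genes of most similar pattern per member, of which some are not reported here. Scn10a, Scn11a and Ank3 were named after their values were seen. The members and lists were chosen with earlier results of these data known. The alternatives changed the pseudocount, minimum mean, scaling, variance model or samples, removed the length and GC trend (splines, 5 degrees of freedom), added the replicate number as a block, used exon union lengths, or left out 1 library. The procedures were tested on simulated data.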

Additional observations from a re-analysis of the deposited data

How the results depend on the processing

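The call of 7 members over both genotypes and the 0 calls between genotypes were found under every alternative run, except 5 calls over both genotypes with the length and GC trend removed. Without an intensity trend in limma, 0 members were called in WT and 0 in KO between ages, and with quantile normalization 5 were called in KO. Over all genes, the 1521 calls in WT became 192 without an intensity trend and 3442 with all 12 libraries in one fit, the 3641 in KO became 1725 without a trend, and leaving out 1 library gave 122 to 2403 in WT and 2093 to 3230 in KO. Between genotypes, leaving out 1 library gave 0 to 8 called genes at P25 and 1 to 3 at P60. For the members, leaving out 1 library gave 0 to 4 calls between ages in WT and 3 to 4 in KO. Shank3 at P25 lost its call with the length and GC trend removed (-1.09), without an intensity trend (-1.06) and without P25-KO replicate 1 or 2 (range over libraries left out -1.14 to -1.001), and at P60 without an intensity trend (-0.99). The Scn2b to Scn3b difference was -0.53 in WT alone and -0.45 in KO alone, where p cannot go below 0.1. The Scn1a to Scn3a difference ran from -0.17 to -0.058 and that of Scn8a to Scn2a from -0.034 to 0.0041 with 1 library left out, and the latter was 0.073 with the trend removed. The cause was not tested.

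Correlations of same-numbered libraries ran from -0.072 to 0.17, and whether the replicate numbers pair the libraries cannot be decided from them. Those of P60-KO with P60-WT were all positive, at 0.060, 0.17 and 0.13 for replicates 1 to 3. For KO against WT, the replicate block lowered the SE of Scn1a from 0.060 to 0.032 at P60, with an adjusted p of 0.82 (limma). At P25 the block raised that SE from 0.086 to 0.10. With the replicate block, 3 members were called in WT, 3 in KO, 7 over both genotypes and 0 between genotypes, and Shank3 at P25 (-1.06) was not called.

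Values near 0 changed sign. At P25, KO against WT was 0.0090 for Scn2b and 0.00074 for Scn4b with equal totals, and -0.0041 for Scn2a and 0.0049 for Scn2b with quantile normalization. With 1 library left out it ran from -0.062 to 0.094 for Scn2a, -0.035 to 0.029 for Scn2b, -0.070 to 0.079 for Scn3a, -0.014 to 0.056 for Scn3b, -0.041 to 0.0024 for Scn4b and -0.11 to 0.034 for Scn8a. At P60 it ran from -0.017 to 0.071 for Scn2b, -0.071 to 0.11 for Scn3a, -0.089 to 0.029 for Scn3b and -0.14 to 0.014 for Scn4b. The interaction ran from -0.080 to 0.049 for Scn1a, -0.013 to 0.076 for Scn2b, -0.077 to 0.11 for Scn3a, -0.11 to 0.011 for Scn3b, -0.13 to 0.027 for Scn4b and -0.096 to 0.044 for Scn8a. It was -0.0040 for Scn3a with equal totals and 0.0089 for Scn1a with the trend removed. Scn2a in KO between ages was -0.018 with the trend removed.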

Other observations

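The share of Scn1a in the per-kilobase sum of the 4 alpha subunit genes was singled out after its values were seen. It was 21.2% to 21.6% in P25-WT and 20.2% to 20.5% in P25-KO, and the ranges did not overlap. No background was computed for such shares, and of single genes 4.76% had no overlap between P25-KO and P25-WT. At P60 it was 22.9% to 23.4% in WT and 21.7% to 23.1% in KO, and the ranges overlapped. The difference between genotypes was not tested.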
